A study of Homo sapiens with 6 samples.

Results

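HOX genes encode the homeodomain transcription factors that give cells their position along the body axis and the limb, and 38 of the 39 human HOX genes are described here, picked by symbol from the 25702 genes listed (1 was not analysed here). They were measured by RNA sequencing in RMS13, an established human alveolar rhabdomyosarcoma line, a childhood tumour with features of skeletal muscle. The labels name skeletal muscle as the source. A single siRNA condition set the groups apart: 3 libraries came from cells given an siRNA against Gli1 (siGLI1) and 3 from cells given a non-targeting siRNA (siNT2), all grown in RPMI with fetal bovine serum and, per the labels, left for 72 h after the knockdown. Nothing in the labels tells whether replicates came from separate cultures. The p-values therefore rest on the spread among libraries, and that spread may be technical. The work rests on 1 cell line.

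Human HOX genes sit in 4 clusters, HOXA on chromosome 7, HOXB on 17, HOXC on 12 and HOXD on 2. Genes at matching positions in different clusters are paralogues and share a number from 1 to 13. Low numbers lie at the end of the cluster that is active early and far forward in the embryo, and high numbers at the end that is active late, in the trunk, the tail and the outer limb. The proteins bind DNA through a homeodomain of 60 residues, often together with TALE cofactors (PBX, MEIS and PKNOX), and an adult cell keeps much of the HOX pattern of the place it came from, held in part by Polycomb and Trithorax chromatin proteins. GLI1 is a zinc finger activator at the end of the Hedgehog pathway. Hedgehog signalling and the posterior HOXD genes act together in the developing limb bud.

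The siNT2 cells had reads from all 4 clusters, with few or none at the anterior end of HOXD, and with HOXB7, HOXB2 and HOXB3 the highest per length. After the GLI1 siRNA, 5 HOX genes fell: HOXA4 to 39.2% of its siNT2 level, HOXD10 to 39.4%, HOXD11 to 40.7%, HOXD13 to 41.0% and HOXA3 to 58.9%. The 5 made up 17.9% of the 28 HOX genes tested, where 8.0% of all genes tested were called lower. HOXD10, and HOXA13 among those not called, passed the minimum mean of 10 for testing only through siNT2 (siGLI1 means 7.861 and 7.202). None of the 28 was called higher, against 7.21% of all genes. HOXA7 and HOXC4 were higher only at an unadjusted p under 0.05 (limma). Only the HOXA4 decrease passed the test in all 6 fits that left out 1 library, and HOXD13 in 5 of them. The summed reads of the HOXD genes went to 54.3% of their siNT2 level and those of the HOXA genes to 76.0%, while those of the HOXB and HOXC genes overlapped between the groups.

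The homeobox, the 180 bases that encode the homeodomain, is where HOX paralogues resemble each other most, and so where reads could be assigned to the wrong one. It is shown for the paralogues 13 and for HOXA4 beside HOXC4, since HOXD13 and HOXA4 fell and the genes set beside them did not pass the test. Sequences are from GENCODE release 29 transcripts, 5′ to 3′. Capitals mark the bases that differ from HOXD13 in the first set and from HOXA4 in the second.
HOXD13 homeobox: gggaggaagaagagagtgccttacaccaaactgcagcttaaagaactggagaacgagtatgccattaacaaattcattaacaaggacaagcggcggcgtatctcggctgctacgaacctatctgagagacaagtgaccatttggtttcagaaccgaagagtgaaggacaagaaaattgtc
HOXA13 homeobox: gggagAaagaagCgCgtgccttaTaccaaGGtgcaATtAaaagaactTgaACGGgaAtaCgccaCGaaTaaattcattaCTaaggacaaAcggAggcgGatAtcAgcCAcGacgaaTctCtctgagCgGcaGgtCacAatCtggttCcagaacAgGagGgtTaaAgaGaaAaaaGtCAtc
HOXB13 homeobox: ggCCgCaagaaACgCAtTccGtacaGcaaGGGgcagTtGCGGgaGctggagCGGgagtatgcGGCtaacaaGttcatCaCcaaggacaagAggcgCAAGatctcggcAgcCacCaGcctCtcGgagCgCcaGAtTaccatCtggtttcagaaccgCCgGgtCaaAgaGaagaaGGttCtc
HOXC13 homeobox: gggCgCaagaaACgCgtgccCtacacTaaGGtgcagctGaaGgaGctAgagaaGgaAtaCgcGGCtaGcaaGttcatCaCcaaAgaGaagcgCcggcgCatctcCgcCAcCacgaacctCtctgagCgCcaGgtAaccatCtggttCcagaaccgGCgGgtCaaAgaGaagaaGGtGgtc
HOXA4 homeobox: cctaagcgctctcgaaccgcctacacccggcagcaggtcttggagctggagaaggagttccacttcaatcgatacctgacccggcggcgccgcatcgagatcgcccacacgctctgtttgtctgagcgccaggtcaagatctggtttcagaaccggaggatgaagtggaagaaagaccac
HOXC4 homeobox: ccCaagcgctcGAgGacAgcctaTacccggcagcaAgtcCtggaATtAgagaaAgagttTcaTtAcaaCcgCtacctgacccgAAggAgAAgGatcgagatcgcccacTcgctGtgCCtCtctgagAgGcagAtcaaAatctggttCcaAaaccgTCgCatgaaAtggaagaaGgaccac

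HOXA13, HOXB13 and HOXC13 differed from HOXD13 at 48, 54 and 47 of the 180 bases, leaving 73.3%, 70.0% and 73.9% identity. HOXC4 differed from HOXA4 at 39 bases, with 78.3% identity. Over all 38 genes, the 40 pairs within a paralogue group were 69.4% to 90.6% identical (median 81.7%), and the other 663 pairs were 47.8% to 91.1% identical (median 60.6%). The differing bases are spread along the whole homeobox in both sets.

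Promoters of the 4 called genes that follow are shown because HOXD13, HOXD11 and HOXD10 are neighbours that fell together and HOXA4 fell in another cluster. HOXD8, a neighbour in the same cluster that did not pass the test, is set beside them. Each sequence is the 250 bases before the annotated start on the gene's own strand, from RefSeq on GRCh38.p14, and capitals mark CG dinucleotides.
HOXD13 promoter, chr2:176092471-176092720, plus strand: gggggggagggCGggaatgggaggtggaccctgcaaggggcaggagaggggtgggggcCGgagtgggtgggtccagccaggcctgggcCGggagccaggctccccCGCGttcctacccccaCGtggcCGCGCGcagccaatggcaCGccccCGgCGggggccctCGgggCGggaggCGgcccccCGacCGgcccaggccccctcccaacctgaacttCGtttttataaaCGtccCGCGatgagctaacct
HOXD11 promoter, chr2:176107030-176107279, plus strand: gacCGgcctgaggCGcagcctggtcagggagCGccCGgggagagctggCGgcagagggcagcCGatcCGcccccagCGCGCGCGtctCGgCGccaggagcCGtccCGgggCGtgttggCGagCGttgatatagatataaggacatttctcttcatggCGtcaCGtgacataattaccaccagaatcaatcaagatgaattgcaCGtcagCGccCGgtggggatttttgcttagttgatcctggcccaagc
HOXD10 promoter, chr2:176116528-176116777, plus strand: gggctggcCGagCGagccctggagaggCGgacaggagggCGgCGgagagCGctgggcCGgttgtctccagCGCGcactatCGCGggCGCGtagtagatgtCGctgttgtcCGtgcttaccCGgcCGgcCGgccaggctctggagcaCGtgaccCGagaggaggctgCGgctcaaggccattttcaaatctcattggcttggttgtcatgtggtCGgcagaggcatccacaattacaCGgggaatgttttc
HOXD8 promoter, chr2:176129455-176129704, plus strand: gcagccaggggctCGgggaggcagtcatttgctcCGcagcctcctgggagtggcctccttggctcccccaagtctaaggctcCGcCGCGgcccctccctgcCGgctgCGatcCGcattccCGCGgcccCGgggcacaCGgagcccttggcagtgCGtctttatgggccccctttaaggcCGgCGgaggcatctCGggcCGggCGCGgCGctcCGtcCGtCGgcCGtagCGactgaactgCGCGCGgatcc
HOXA4 promoter, chr7:27130758-27131007, minus strand: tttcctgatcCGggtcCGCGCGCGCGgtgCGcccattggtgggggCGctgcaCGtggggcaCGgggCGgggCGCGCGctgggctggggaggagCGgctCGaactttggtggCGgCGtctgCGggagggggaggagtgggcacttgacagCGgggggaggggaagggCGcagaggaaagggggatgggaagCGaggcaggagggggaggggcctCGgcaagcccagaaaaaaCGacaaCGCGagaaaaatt

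All of these windows were rich in CG, with 21 CG dinucleotides before HOXD13, 23 before HOXD11, 23 before HOXD10, 28 before HOXD8 and 26 before HOXA4. The median was 19 over the 27 windows of the 20 HOX genes with an entry in the table, and 11 over all 35116 windows. The GLI consensus GACCACCCA, searched on both strands over 300 bases (250 before the start and 50 after it), was in 0 of the 27 HOX windows and in 83 of all 35116 (0.236%). A motif this rare, in windows this short, says only that these letters are not there.

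The targeted gene checked the labels. GLI1 had 11962.5, 17836.9 and 12774.1 normalised reads in siNT2, against 579.9, 905.8 and 1274.1 after its siRNA. The groups did not overlap, and the siGLI1 mean was 6.48% of the siNT2 mean. Libraries held 13673977 to 18947614 reads, of which 2811 to 4812 (0.0204% to 0.0264%) fell on the 38 HOX genes. Normalised reads are a gene's reads scaled by the size factor of the library, as deposited, and 3 reads, the most that a count of 0 allows, equal 2.39 to 3.29 of these units (counting error only). Within each group, libraries also differed along the GC content of genes. Across genes, a library's departure from the mean of its group had a rank correlation with GC content of -0.61 to 0.71 among siNT2 libraries and -0.70 to 0.75 among siGLI1 libraries. The median GC content was 54.4% for the HOX genes tested and 49.4% for all genes tested.

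Among 12 skeletal muscle markers MYOD1, MYOG, DES, CDH15, ACTC1 and TTN had siNT2 means of 4272 to 17460. MYF5, MYF6 and PAX7 had means of at most 1.02 in both groups. Of the 9 tested, 4 rose (DES, CHRNA1, ACTC1 and MYMK). MYOD1, MYOG, PAX3, CDH15 and TTN were not called (limma adjusted p 0.0727 to 0.972). The summed level of the list went from 66940 to 79990 in siNT2 to 105300 to 133900 in siGLI1. That rise was largest in ACTC1 (mean 12390, then 38210) and TTN (9103, then 19790). Markers of other tissues were low or mixed. Epithelial markers summed to 129.2 to 161.2 in siNT2 and 97.2 to 104.3 in siGLI1 (0 of 3 tested called, KRT5 and KRT19 at or near 0), and blood markers to 54.21 to 99.38 and 63.72 to 120.5 (0 of 2, HBB at 0 and PTPRC at most 2.96). Endothelial markers summed to 67.95 to 122.8 and 140.2 to 165.2, with PECAM1 the 1 of 2 tested that rose and VWF at most 8.18. Fibroblast markers summed to 975.7 to 1381 and 1031 to 1160, with COL1A2 and LUM the 2 of 5 that rose and DCN at most 3.99. COL1A2 passed the minimum mean for testing only through siGLI1 (mean 32.91). Its siNT2 values were low (3.29, 2.03 and 7.97, mean 4.432), so the size of its rise is uncertain. Neural markers summed to 562.2 to 745.4 and 718.2 to 1118, with OLIG2 the 1 of 2 that rose and SNAP25 at 0. The DES call was lost without siNT2 replicate 1 (adjusted p = 0.0535, limma), and those of CHRNA1, MYMK and OLIG2 without that library or siGLI1 replicate 2 (0.0512 to 0.0878). The LUM call was lost when any library was left out (0.0555 to 0.195). The muscle markers called thus rose in the same libraries in which the 5 HOX genes fell, and their part in the HOX values was not tested. In bulk RNA, fewer cells with a transcript and less of it per cell cannot be told apart.

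Levels in siNT2 cells were compared between genes after division by exon length, as normalised reads per kb. HOXB7, a gene of the middle of its cluster, was highest at 210.3 ± 16.5 (SD, n = 3). The anterior genes HOXB2 and HOXB3 followed at 153.5 ± 24.2 and 148.8 ± 20.9, which did not differ beyond their spread. HOXC4 (112.9 ± 28.6), HOXA3 (110.3 ± 13.6) and HOXC9 (104.9 ± 22.3) came next and overlapped each other, as did HOXD9 (87.49 ± 25.3), HOXD13 (85.59 ± 4.16) and HOXB13 (84.72 ± 0.633). HOXA10 came after them with 75.59 ± 13.2. The same 10 genes led without division by length, in another order (HOXB3, HOXA3 and HOXB13 first). HOXB7 had a higher level per kb than 63.8% of all genes tested, HOXD13 than 40.8% and HOXA4 than 31.0%, so the HOX genes were of middling to low abundance in these cells.

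**Figure D1:**
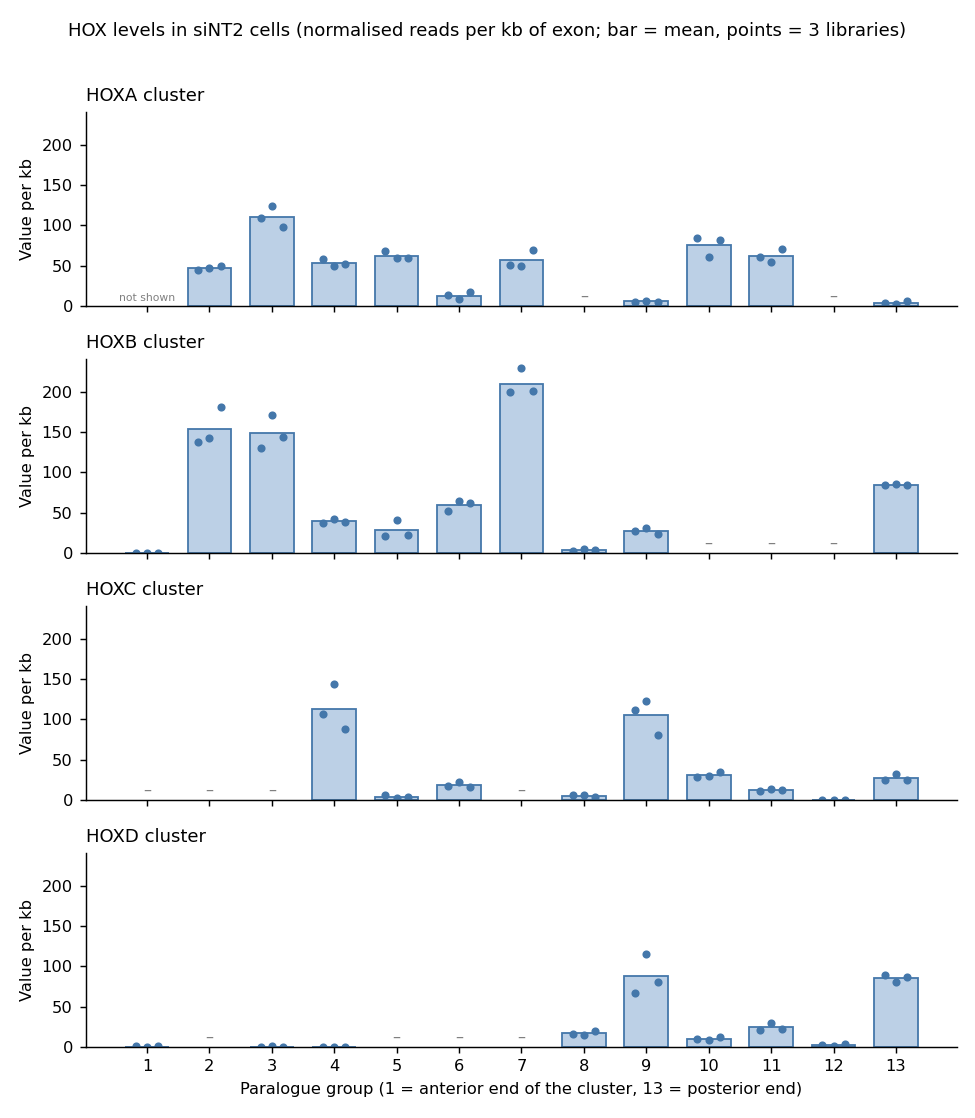
HOX levels in siNT2 cells by cluster (rows) and paralogue number (x axis, 1 at the anterior end and 13 at the posterior end), as normalised reads per kb of exon (y axis). Bars are means and points the 3 libraries, and dashes mark numbers with no gene in that cluster. The tallest bar is HOXB7 at 210.3, and in HOXD the bars of paralogues 1, 3 and 4 are at or near 0 while those of 9 and 13 stand above 80.

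By cluster, HOXB held 42.2% of the summed level per kb in siNT2, HOXA 27.4%, HOXC 17.7% and HOXD 12.7%. Within HOXD the anterior genes were nearly silent: HOXD4 was at 0 in all 6 libraries, HOXD3 reached at most 1.01 normalised reads and HOXD1 at most 1.10, both under the floor. Of the exon bases, 80.5% of HOXD4 and 95.8% of HOXD3 are shared with another transcript on the same strand, and 58.1% of HOXD1 lie opposite other transcripts, so the assignment of reads there is uncertain. HOXB1 and HOXC12 were also at 0 throughout. The posterior genes carried the cluster, with HOXD9 and HOXD13 at 87.49 and 85.59 per kb, HOXD11 at 24.08, HOXD8 at 16.55 and HOXD10 at 10.03.

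In HOXB the high genes were HOXB2, HOXB3 and HOXB7, while HOXB4, HOXB5, HOXB6 and HOXB9 were at 39.25, 27.83, 59.46 and 26.74 per kb and HOXB8 at 3.307, and HOXB13, which lies far from the rest of its cluster, was again at 84.72. In HOXA the levels were 47.33 to 110.3 per kb from HOXA2 to HOXA5. They were low at HOXA6 and HOXA9 (12.82 and 5.539), with HOXA7 between them at 56.65, and higher at HOXA10 and HOXA11 (75.59 and 62.01). HOXA13 stood at 3.613. HOXC was led by HOXC4 and HOXC9, while HOXC5 and HOXC8, which lie between them, were at 3.752 and 5.07, the former with 59.9% of its exon bases also under other gene entries on the same strand. HOXC6, between HOXC5 and HOXC8, was at 18.63.

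Paralogue groups also had uneven members. Group 7 had the largest sum, 267.0 per kb, of which HOXB7 gave 78.8%, and group 3 followed with 259.2, of which HOXB3 gave 57.4%. Group 9 (224.7), group 4 (205.6), group 13 (201.2) and group 2 (200.8) were close together. HOXC4 made up 54.9% of group 4 and HOXD13 42.5% of group 13, with HOXB13 close behind. Groups 1 and 12 were nearly empty, at 0.32 and 2.08.

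For siGLI1 against siNT2, 28 of the 38 HOX genes had a mean of 10 or more and were tested, among 15622 genes. Those not tested were HOXA6, HOXB1, HOXB8, HOXC5, HOXC8, HOXC12, HOXD1, HOXD3, HOXD4 and HOXD12. HOXD10 and HOXA13 passed this minimum only through siNT2, their siGLI1 means being 7.861 and 7.202. Of the 28 tested, 5 were lower (17.9%) and 0 higher, where over all genes tested 15.2% were called, 8.0% lower and 7.21% higher. At an unadjusted p under 0.05, limma had 10 HOX genes lower, against 16.3% of all genes tested, and 2 higher, HOXA7 and HOXC4, against 15.3%. With adjusted p-values edgeR and DESeq2 also had 0 HOX genes higher, and at an unadjusted p under 0.05 each had the same 2. Libraries did not overlap between the groups, lower in siGLI1, for 14 of the 28 (50%), against 18.8% of all genes tested. HOXA7 was the 1 gene with no overlap in the other direction (3.57%), against 17.4% of all genes. The log2 fold change, siGLI1 minus siNT2 on log2 of the value plus 1, was below 0 for 23 of the 28 (82.1%), as it was for 50.8% of all genes. The HOX median was -0.28 and that of all genes -0.01. With each library corrected for its trend along GC content, the HOX median was -0.14, and 8 HOX genes were lower (HOXA2, HOXA13 and HOXD9 besides the 5), in a fit that also called 16.8% of all genes lower.

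**Figure D2:**
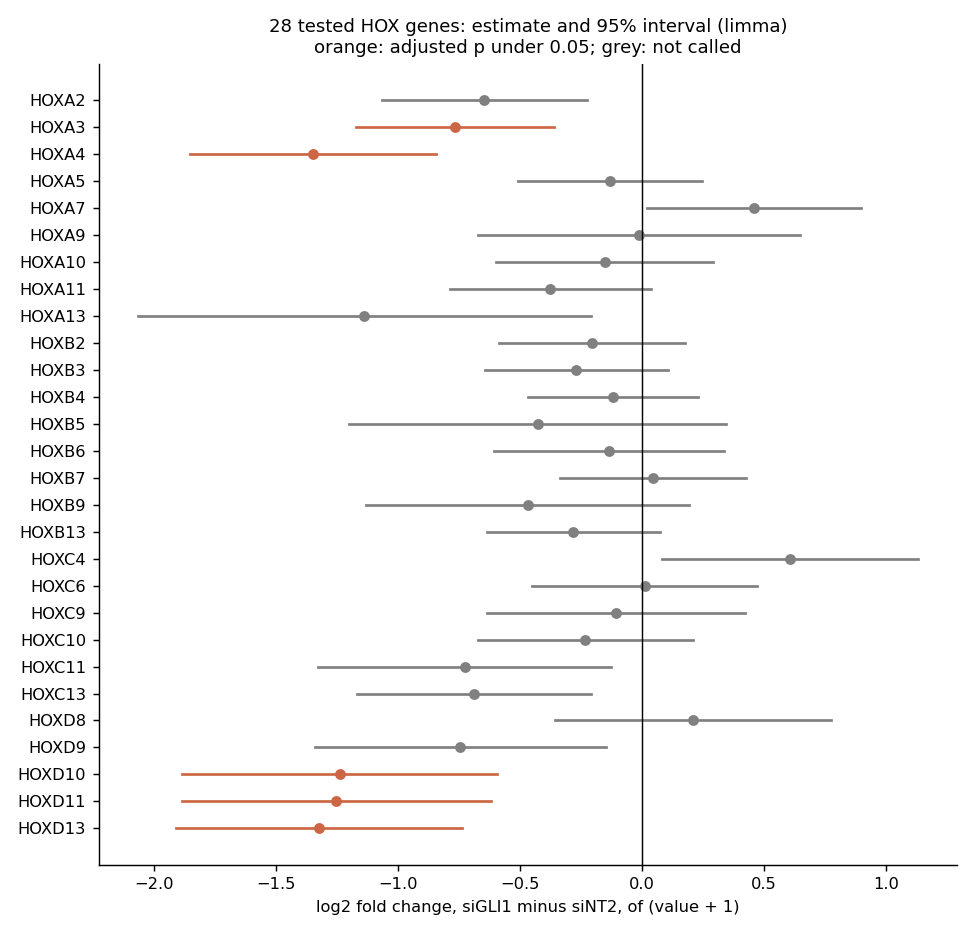
Log2 fold change (x axis, siGLI1 minus siNT2, of value plus 1) of the 28 HOX genes tested (y axis, in cluster order), with 95% intervals from limma. Orange marks an adjusted p under 0.05. The 5 orange points are HOXA3, HOXA4, HOXD10, HOXD11 and HOXD13, at -0.77 to -1.35, and HOXC4, at 0.61, lies farthest to the right.

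The posterior HOXD genes, which pattern the outer limb and the digits, gave 3 of the 5 decreases. HOXD13, whose mutation causes fused and extra digits, had 199.85, 181.54 and 193.78 normalised reads in siNT2 and 86.40, 98.14 and 51.36 in siGLI1. Every siGLI1 library was below every siNT2 library, the mean went from 191.7 ± 9.32 to 78.63 ± 24.3 (SD, n = 3 per group), and the log2 fold change was -1.33 (standard error 0.25, limma adjusted p = 0.0141). Without siNT2 replicate 1 the adjusted p from limma was 0.0657. HOXD13 shares no exon base with another annotated gene.

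HOXD11, which patterns the forearm together with HOXA11, had 31.84, 44.63 and 34.29 in siNT2 and 11.88, 19.42 and 13.83 in siGLI1. HOXD10, which acts in the hind limb and its motor neurons, had 18.67, 17.24 and 23.92, then 6.48, 9.20 and 7.90. In both genes the groups were well apart, with the highest siGLI1 value below the lowest siNT2 value. The log2 fold changes were -1.25 for HOXD11 (standard error 0.27, limma adjusted p = 0.0221) and -1.24 for HOXD10 (standard error 0.28, limma adjusted p = 0.0245). Both rest on few reads. The HOXD11 call remained in 1 of 6 fits that left out a library, the one without siGLI1 replicate 3, with adjusted p-values of 0.0504 to 0.0683 in the rest. The HOXD10 call was lost without siNT2 replicate 1 or 3 or siGLI1 replicate 1 or 2 (limma adjusted p 0.0691 to 0.0850), and with the replicate number as a block its adjusted p was 0.0745. Of the HOXD11 exon bases 29.5% are also annotated to HOXD10 on the same strand in GENCODE release 29. The HOXD10 exons whose length was used here share 0.0% with another gene. The authors' annotation is not given, so how reads there were assigned is uncertain.

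HOXD9, the next gene towards the anterior end, had 124.08, 216.03 and 150.71 in siNT2 and 76.68, 94.05 and 117.53 in siGLI1. The groups did not overlap but lay close, at a log2 fold change of -0.74 (95% interval -1.34 to -0.15, limma adjusted p = 0.0911, DESeq2 adjusted p = 0.0469). HOXD8, whose promoter is shown above, had 41.73, 38.54 and 50.24 in siNT2 and 37.80, 60.32 and 55.31 in siGLI1. These values overlapped, with a log2 fold change of 0.21 (95% interval -0.36 to 0.78, limma adjusted p = 0.596). HOXD12, between HOXD13 and HOXD11, had 2.20, 2.03 and 3.99 in siNT2 and 0 in each siGLI1 library, values at or near the floor that allow no fold.

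In HOXA the 2 decreases that were called lay at the anterior end. At the posterior end HOXA11 and HOXA13 were also lower without overlap between the groups, but were not called. HOXA4, which helps to pattern the neck vertebrae, had 99.93, 86.21 and 90.91 in siNT2 and 45.36, 29.65 and 33.58 in siGLI1. The highest siGLI1 value was far below the lowest siNT2 value, and the mean went from 92.35 ± 6.97 to 36.20 ± 8.18 (SD, n = 3 per group). The log2 fold change was -1.35 (standard error 0.22, limma adjusted p = 0.00771), and the adjusted p did not exceed 0.0483 when any library was left out. Of its exon bases, 31.3% are shared with another transcript on the same strand and 16.5% with HOXA-AS2 or HOXA-AS3 on the other, and whether strand was used in counting is not given in the sources used here.

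HOXA3, which patterns the pharyngeal arches and the thymus, had 379.94, 433.07 and 338.91 in siNT2 and 199.79, 211.62 and 266.66 in siGLI1. The groups did not overlap, and the log2 fold change was -0.77 (standard error 0.17, limma adjusted p = 0.0259). That call was lost without siNT2 replicate 1 or 2 or siGLI1 replicate 1 or 2 (limma adjusted p 0.0707 to 0.126), and with the replicate number as a block (0.0959). HOXA2, which patterns the second pharyngeal arch, had 81.26, 86.21 and 90.11, then 47.52, 59.29 and 57.28. These values did not overlap either, but the log2 fold change of -0.65 missed the threshold (95% interval -1.07 to -0.23, limma adjusted p = 0.0506) and passed it with DESeq2 (adjusted p = 0.0461).

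**Figure D3:**
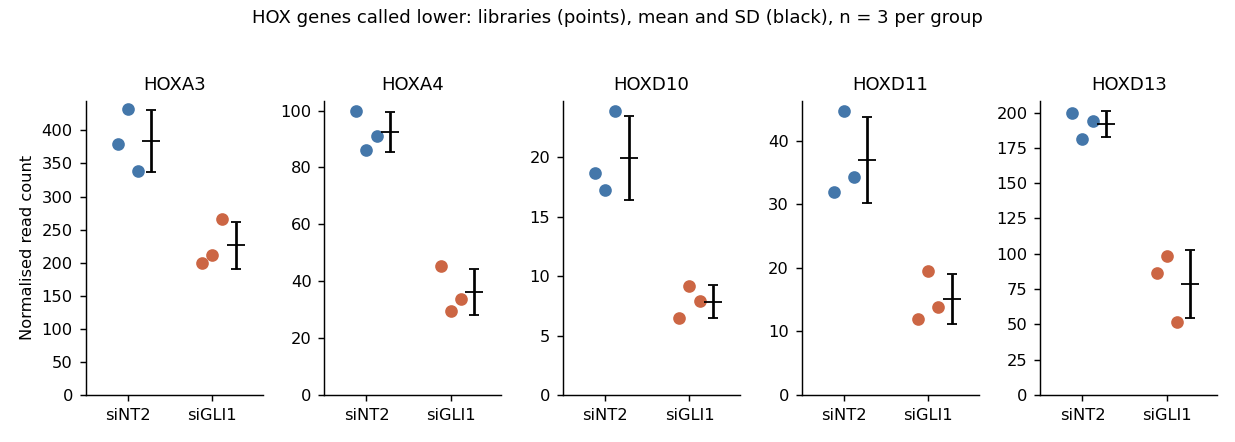
Normalised read counts (y axis, from 0, a scale of its own in each panel) of the 5 HOX genes called lower, by group (x axis). Points are libraries and black marks the mean and SD of 3 libraries. In each panel every siGLI1 point lies below every siNT2 point, and relative to the values the gap is narrowest in HOXA3 (266.66 against 338.91).

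The rest of HOXA did not pass the test. HOXA5 (-0.13), HOXA9 (-0.01) and HOXA10 (-0.15) were near 0 with overlapping groups. HOXA11, a gene of the forearm and the uterus, had -0.38 (95% interval -0.79 to 0.04). Its groups did not overlap but nearly touched (highest siGLI1 value 121.48, lowest siNT2 value 123.73). HOXA13, the digit and hindgut gene, had 16.47, 10.14 and 27.91 in siNT2 and 6.48, 9.20 and 5.93 in siGLI1, a log2 fold change of -1.14 whose interval was wide (-2.07 to -0.21, limma adjusted p = 0.0966). HOXA7 was the exception in direction. It had 103.22, 99.39 and 140.35 in siNT2 and 167.39, 157.44 and 143.21 in siGLI1, with the closest values almost touching (log2 fold change 0.46, 95% interval 0.02 to 0.90, limma adjusted p = 0.143). Since 74.7% of its exon bases lie opposite HOXA-AS3, the strand its reads came from is uncertain. HOXA6, not tested, had 8.11 to 16.75 in siNT2 and 4.32 to 7.90 in siGLI1.

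No HOXB gene was called among 8 tested. HOXB7 overlapped between the groups at 274.52, 314.41 and 275.91 in siNT2 and 261.35, 286.25 and 349.63 in siGLI1 (log2 fold change 0.05, 95% interval -0.34 to 0.43). HOXB13, a posterior gene known from the prostate, had 293.19, 296.15 and 291.86, then 237.59, 213.67 and 277.53. Its siNT2 values were nearly equal and above all siGLI1 values, at a log2 fold change of -0.28 (95% interval -0.64 to 0.07, limma adjusted p = 0.251). The other HOXB genes tested, HOXB2 to HOXB6 and HOXB9, had log2 fold changes of -0.12 (HOXB4) to -0.47 (HOXB9).

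No HOXC gene was called among 6 tested, and the cluster moved both ways. HOXC4 had the highest log2 fold change of all HOX genes tested, 0.61 (95% interval 0.08 to 1.13, limma adjusted p = 0.111). It had 241.58, 326.58 and 199.36 in siNT2 and 308.86, 418.13 and 433.58 in siGLI1, where 1 siNT2 library overlapped the siGLI1 range. HOXC4 shares 21.3% of its exon bases with HOXC5 and HOXC6 on the same strand. At the posterior end HOXC13, a gene of hair and nail, had 60.39, 77.08 and 60.60, then 39.96, 46.00 and 35.56 (log2 fold change -0.69, 95% interval -1.17 to -0.21, limma adjusted p = 0.0624). HOXC11 had 36.24, 45.64 and 39.87, then 23.76, 18.40 and 31.60 (log2 fold change -0.73, 95% interval -1.33 to -0.13, limma adjusted p = 0.0996). Both posterior genes were separated between the groups without passing the test. HOXC6, HOXC9 and HOXC10 were at 0.01, -0.11 and -0.23, and HOXC8, not tested, had 5.58 to 12.17 in siNT2 and 2.16 to 5.11 in siGLI1.

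Summed over their genes, HOXD and HOXA were separated between the groups, and HOXB and HOXC were not. HOXD had 419.5, 501.0 and 457.7 normalised reads in siNT2 and 220.3, 282.1 and 245.9 in siGLI1, and HOXA 1224.4, 1149.1 and 1236.0, then 920.1, 894.5 and 929.4. In both clusters all siGLI1 sums lay below all siNT2 sums. Abundant genes weigh most in such sums. In HOXD the mean of HOXD13 went from 191.7 to 78.63 and that of HOXD9, not called with limma, from 163.6 to 96.09. In HOXA that of HOXA3 went from 384 to 226. The means of HOXD8 (43.5, then 51.14) and HOXA7 (114.3, then 156) went the other way, and neither gene was called. HOXB went from 1593 ± 127 to 1399 ± 131 (SD, n = 3 per group), 87.8% of siNT2, and HOXC from 657.6 ± 116 to 720.2 ± 97.7, 110% of siNT2, with overlap in each. The median log2 fold change of the genes tested was -1.24 in HOXD (5 genes), -0.38 in HOXA (9), -0.24 in HOXB (8) and -0.17 in HOXC (6). The HOXD median is the value of HOXD10, which passed the minimum of 10 only through siNT2. Differences between clusters were not tested.

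**Figure D4:**
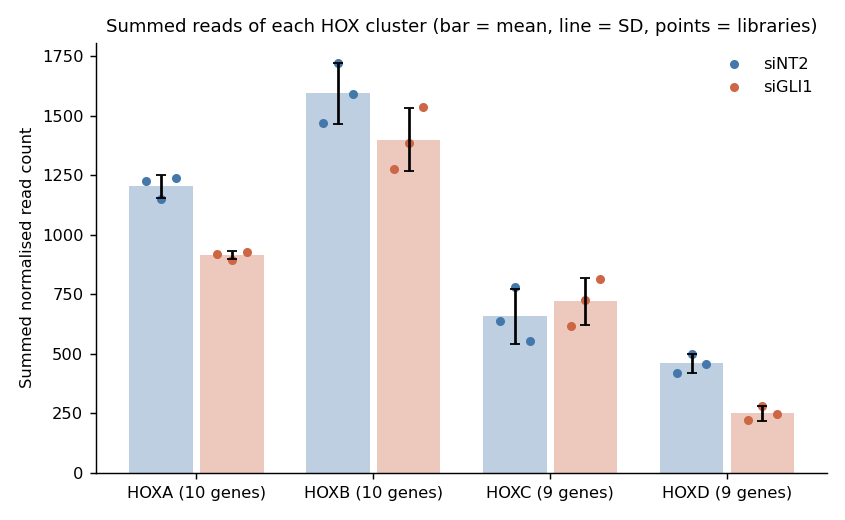
Summed normalised read count (y axis, from 0) of the HOX genes in each cluster (x axis) for siNT2 and siGLI1. Bars are means, lines the SD and points the 3 libraries. The HOXA and HOXD points of siGLI1 lie below those of siNT2, to 76.0% and 54.3% on average, while the HOXB and HOXC points overlap.

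Read ratios between paralogues were separated between the groups for several pairs in which 1 member fell. HOXB13 had 1.47 to 1.63 times the reads of HOXD13 in siNT2 and 2.18 to 5.40 times in siGLI1, and HOXA4 had 0.264 to 0.456 times the reads of HOXC4, then 0.0709 to 0.147. HOXA10 had 10.8 to 14.3 times the reads of HOXD10, then 23.3 to 37.2, and HOXA11 2.77 to 4.74 times those of HOXD11, then 5.26 to 8.78. None of these ranges overlapped between the groups. Each of these pairs holds a gene already called lower, so its ratio draws on the same values as that call and is no separate evidence. HOXD10 also passed the minimum of 10 only through siNT2. Of 26 pairs of tested paralogues, 10 had no overlap, and the exact two-sided permutation p was 0.10 for each of those, the smallest that 3 against 3 libraries allow (0.26 with Benjamini-Hochberg adjustment over the 26). Summed per kb, group 13 went from 201.2 to 123.3, group 11 from 98.53 to 64.90 and group 3 from 259.2 to 187.9. Group 4 went from 205.6 to 227.6, with HOXA4 at 53.44 and then 20.95 and HOXC4, which was not called, at 112.9 and then 170.6.

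The heptamer GCACCTC, which an earlier look at these data brought up, was in the 3′ UTR of 3 of the 38 HOX genes (HOXC11, HOXC12 and HOXD13). Among the 28 HOX genes tested, only HOXC11 and HOXD13 had it, since HOXC12 was at 0 and not tested. Of all genes tested that had a 3′ UTR annotated, 8.70% had it. The sites of the 2 that are expressed are given with the heptamer in capitals, since HOXD13 is 1 of the 5 genes called lower.
HOXD13 site: gatggcataaatGCACCTCcttttcttggc
HOXC11 site: agatgggattggGCACCTCccccgtgctgg

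They lie at position 813 of the 1208 bases of the HOXD13 3′ UTR and at position 780 of 2230 in HOXC11 (GENCODE release 29). HOXA3, HOXA4, HOXD10 and HOXD11 fell without the heptamer. Its part in the HOXD13 value was not tested.

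Noncoding transcripts of the clusters, some of them known to act on HOX genes or Polycomb, also included decreases. Of 6 tested, 2 were lower and 0 higher. For this list and those that follow, 8.0% of all genes tested were called lower and 7.21% higher. HOTAIR, transcribed from the HOXC cluster, had 29.65, 35.50 and 43.06 in siNT2 and 17.28, 20.45 and 11.85 in siGLI1 (log2 fold change -1.10, limma adjusted p = 0.0386), and HOTAIRM1, beside the anterior HOXA genes, had 383.23, 493.92 and 315.78, then 198.71, 242.29 and 248.89 (-0.77, limma adjusted p = 0.0399). Groups did not overlap in either. The HOTAIR call was lost when any library was left out (limma adjusted p 0.0614 to 0.115), and that of HOTAIRM1 without siNT2 replicate 1 or 2 or siGLI1 replicate 1 or 2 (0.0925 to 0.13). HOXA-AS2 (-0.55), HOXA11-AS (-1.01), HOXB-AS3 (-0.92) and HAGLR (-0.33) were not called. HOTTIP, next to HOXA13, had at most 5.49.

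The TALE cofactors, with which HOX proteins bind DNA, were all expressed and none of the 9 was called (median log2 fold change -0.33). PBX2, PBX3 and PBX4 had log2 fold changes of -0.53, 0.18 and 0.14. MEIS1, MEIS2 and MEIS3 had -0.35, -0.36 and -0.33, and PKNOX1 and PKNOX2 had 0.42 and -0.17, the lowest adjusted p being 0.066 (PKNOX1, limma). With the GC correction MEIS2 (-0.51, adjusted p = 0.0121) and PKNOX1 (0.36, adjusted p = 0.00921) passed, with limma.

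Among chromatin regulators that hold HOX states, 3 of 20 Polycomb genes were lower and 0 higher (median -0.25). CBX2, a Polycomb reader of methylated histone H3, fell by 0.78 (limma adjusted p = 0.00892), PHF19, an accessory subunit of the histone methyltransferase complex, by 0.95 (limma adjusted p = 0.00932) and RBBP4, a histone-binding subunit, by 0.55 (limma adjusted p = 0.0274). The CBX2 and PHF19 calls were each lost without siGLI1 replicate 2 (adjusted p = 0.0629), that of RBBP4 without siNT2 replicate 1 or 3 or siGLI1 replicate 1 or 2 (0.067 to 0.126). With the GC correction PHC3 was higher (0.75, limma adjusted p = 0.00765), and EZH1, EZH2, RBBP7 and RNF2 were also lower. Of 13 Trithorax-type regulators (median 0.05), the demethylase gene KDM6A rose by 0.98 (limma adjusted p = 0.0393) and the methyltransferase gene DOT1L fell by 1.07 (limma adjusted p = 0.0444), calls lost without siNT2 replicate 1 or 2 or siGLI1 replicate 1 or 2 (0.083 to 0.16 for KDM6A) and, for DOT1L, also without siNT2 replicate 3 (0.078 to 0.154).

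Of 17 tested genes of the retinoic acid and CDX inputs to HOX transcription, 1 rose and 2 fell (median -0.29). STRA6, which encodes the retinol uptake receptor, went from 4606 to 567.9, a log2 fold change of -3.04 (limma adjusted p = 0.00121) that passed in every fit without 1 library. The retinoid receptor gene RXRA fell by 0.80 (limma adjusted p = 0.0247) and the retinoic acid carrier gene CRABP2 rose by 1.33 (limma adjusted p = 0.0316), each lost in 5 of those fits (0.0513 to 0.116 for RXRA, all but the fit without siGLI1 replicate 3, and 0.0564 to 0.12 for CRABP2, all but the one without siGLI1 replicate 1). CDX1 was at 0 throughout, and CDX2 and CDX4 had at most 1.08.

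Of 16 tested genes of the limb and of migrating muscle precursors, 3 rose and 2 fell (median 0.08). Among those that rose were EYA1, a transcriptional coactivator gene of muscle precursors, by 1.18 (limma adjusted p = 0.0108) and the chemokine receptor gene CXCR4 by 1.24 (limma adjusted p = 0.000928). MEOX1, a homeobox gene of the somite, went from 910.5 to 489.8 (log2 fold change -0.90, limma adjusted p = 0.00607) and TBX2 fell by 1.04 (limma adjusted p = 0.0354), the last a call lost in all but the fit without siGLI1 replicate 3 (0.059 to 0.147). EYA1 was lost without siGLI1 replicate 2 (adjusted p = 0.0604). TBX5, the forelimb gene, was at 0 and TBX4, the hind limb gene, had at most 4.32. Of 10 genes tested that flank the clusters, 2 were lower and 0 higher (median -0.29). ATP5MC2, near HOXC, fell by 0.93 and MTX2, beside HOXD, by 0.55 (limma adjusted p = 0.0392 and 0.0289). Both calls were lost without siNT2 replicate 1 or 2 or siGLI1 replicate 1 or 2 (0.0751 to 0.157). That of MTX2 was also lost without siNT2 replicate 3. EVX2, the direct neighbour of HOXD13, had at most 1.02.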

How the data were processed

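The authors deposited gene-level signal values: reads counted per gene, scaled by the size factor of each library. The submitters' processing notes name Trim Galore 0.4.5 and bcl2fastq, alignment tool Bowtie2 2.3.3.1, build hg19, Subread 1.6.4 with featureCounts, and DESeq2 2.11.40.6. Strandedness, multiple matches and the annotation were not given in the sources used here. All values (100.0%, tolerance 0.01 reads) were multiples of 1 read, so whole reads were recovered. Symbols came from a RefSeq table by Entrez number (23696 of 25702), and lengths, GC content and UTRs from GENCODE 29, which may differ from the authors' models.

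Genes with a mean of 10 or more over the 6 libraries were tested with limma 3.58.1 (R 4.3.3) on log2 of the value plus 1, with group as the only term, all 6 libraries, Benjamini-Hochberg adjustment over 15622 genes and a threshold of 0.05, two-sided. Intervals are 95%. Alternatives were edgeR 4.0.16 and DESeq2 1.42.0 on the recovered reads, TMM scaling, pseudocounts of 8 and 0.5, no minimum or a minimum of 50, a replicate block, a GC correction, and leaving out each library. The script was tested on simulated data. No replicate pair agreed within sampling noise. The members and lists were chosen with earlier results of these data known. Named genes are all members, GLI1, the cofactors and noncoding transcripts tested, and from each other list up to 4 called genes with the smallest p. HOTTIP, and markers and regulators named at low levels, were added after their values were seen. Some items that this rule took are not reported here.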

Additional observations from a re-analysis of the deposited data

How the results depend on the processing

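Without the replicate block 5 HOX genes were lower, and with it 3 (HOXA4, HOXD11 and HOXD13; HOXA3 had an adjusted p of 0.0959 and HOXD10 of 0.0745, limma), while all genes went to 462 higher and 508 lower. Deviations of same-numbered libraries correlated at 0.49, -0.11 and -0.61. Same-numbered libraries share the start of an ID in the labels, which do not say what it marks, and these correlations do not show a pairing. The GC correction gave 8 HOX genes lower, and 2518 higher and 2424 lower over all genes; with the block as well, 5 HOX genes were lower (HOXA2 at an adjusted p of 0.0325 was gained and HOXD11 at 0.0562 lost, limma), and all genes had 2013 higher and 1935 lower. Leaving out single libraries gave 1 (without siNT2 replicate 1) to 7 (without siGLI1 replicate 3) HOX genes lower, and over all genes 283 to 1562 higher and 358 to 1705 lower. HOX genes called higher stayed at 0 in every setting run. The HOX median ranged from -0.35 to -0.14. Of the single HOX genes, HOXA9, HOXB6, HOXC9, HOXC6 and HOXB7, none of them called, changed sign. HOXA9 was at 0.0017 with DESeq2, 0.09 without siNT2 replicate 2 and 0.14 without siGLI1 replicate 3. HOXB6 was at 0.033 with the GC correction, with or without the block, and from -0.26 to 0.015 without 1 library (highest without siGLI1 replicate 1). HOXC9 was at 0.017 with the GC correction, with or without the block, and from -0.29 to 0.020 without 1 library (highest without siNT2 replicate 2). HOXC6 was at -0.025, -0.082 and -0.042 without siNT2 replicate 1, siNT2 replicate 3 and siGLI1 replicate 3, and HOXB7 at -0.073 without siGLI1 replicate 3. The cause was not tested. With no minimum HOXD12 was also lower, at counts near the floor. Depth limits the HOX genes with means near or below 10, among them HOXD10 and HOXA13 in siGLI1.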
